A study of Mus musculus with 16 samples.

Results

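The mRNAs described here are 9 genes by which T cells are usually recognised: Cd3d, Cd3e, Cd3g, Cd2, Cd28, Lck, Zap70, Cd4 and Cd8a. The 9 genes were chosen with earlier results of these data known. Their values were taken by gene symbol, and all 9 symbols were found among the 21878 mRNAs of the count and FPKM tables. RNA-seq was performed on brain cells labelled as microglia, sorted as CD11b+/CD45int, with 1 library for each of 8 EAE mice and 8 PBS-treated mice. All mice were wild-type (WT) female C57BL/6 animals of 8 weeks. The EAE mice received MOG peptide in complete Freund's adjuvant and 200 ng of pertussis toxin on days 0, 2 and 7, and brains were taken at peak disease. The last residue of the peptide in the treatment labels runs from 55 in EAE 1 to 62 in EAE 8, while the protocol gives MOG35-55 for all, and the 8 mice were kept as 1 group. Control mice received PBS on the same schedule, and neither the labels nor the methods state that these mice were given adjuvant or toxin. Libraries are named by group and replicate, such as EAE 2 or PBS 8.

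EAE is a model of multiple sclerosis in which T cells primed against a myelin peptide enter the central nervous system. A T cell recognises antigen through the T cell receptor, whose variable chains have almost no cytoplasmic part and therefore signal through the CD3 delta, epsilon, gamma and zeta chains. The co-receptors CD4 and CD8 hold the kinase LCK and bind class II or class I MHC molecules. LCK phosphorylates the CD3 chains, and ZAP70 then docks on them. CD28 and CD2 give costimulation. Most T cells lack CD11b, a surface protein that the sort used together with an intermediate level of CD45. Some of these genes are also transcribed outside the T cell lineage, and bulk libraries cannot tell fewer cells of a type from less RNA per cell.

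The genes of the CD3 delta, epsilon and gamma chains lie next to each other on chromosome 9 of GRCm38, from 44969572 to 45009627, a span of 40056 bases (GENCODE M21). Cd3d and Cd3g are transcribed away from each other from annotated starts 1355 bases apart. RefSeq promoter windows on GRCm38.p6, which lie mostly upstream of the start and reach a little past it, were matched for 6 of the 9 genes, and not for Cd2, Cd28 and Cd4. The windows of the 3 CD3 genes are shown because their mRNAs encode the signalling chains of the receptor, and that of Cd8a because it had the smallest p-value of the 9. Each is read 5′ to 3′ along its gene, and capitals mark matches to CANNTG, the E-box bound by E proteins.
Cd3d, chr9:44981536-44981835, plus strand: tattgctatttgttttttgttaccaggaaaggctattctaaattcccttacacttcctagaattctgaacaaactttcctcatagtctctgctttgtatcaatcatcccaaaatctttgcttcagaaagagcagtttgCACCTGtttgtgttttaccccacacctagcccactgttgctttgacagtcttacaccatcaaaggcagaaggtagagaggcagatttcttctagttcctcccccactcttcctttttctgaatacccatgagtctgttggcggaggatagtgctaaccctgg
Cd3e, chr9:45009562-45009861, minus strand: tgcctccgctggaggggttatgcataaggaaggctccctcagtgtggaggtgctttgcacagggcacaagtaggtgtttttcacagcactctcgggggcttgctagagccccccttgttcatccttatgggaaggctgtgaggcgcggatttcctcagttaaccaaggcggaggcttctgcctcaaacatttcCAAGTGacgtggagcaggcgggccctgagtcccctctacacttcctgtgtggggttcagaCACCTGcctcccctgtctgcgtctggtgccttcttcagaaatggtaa
Cd3g, chr9:44980382-44980681, minus strand: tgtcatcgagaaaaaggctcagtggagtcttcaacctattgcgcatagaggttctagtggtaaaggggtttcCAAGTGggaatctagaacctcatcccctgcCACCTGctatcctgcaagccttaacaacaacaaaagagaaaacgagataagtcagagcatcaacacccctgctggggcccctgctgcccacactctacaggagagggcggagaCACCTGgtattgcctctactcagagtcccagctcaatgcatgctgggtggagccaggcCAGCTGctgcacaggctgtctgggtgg
Cd8a, chr6:71373177-71373476, plus strand: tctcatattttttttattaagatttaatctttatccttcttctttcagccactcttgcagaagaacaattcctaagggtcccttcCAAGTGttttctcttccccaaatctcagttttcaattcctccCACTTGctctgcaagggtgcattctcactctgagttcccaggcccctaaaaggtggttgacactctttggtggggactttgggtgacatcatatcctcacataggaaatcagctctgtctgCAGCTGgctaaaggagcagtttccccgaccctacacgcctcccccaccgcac
The E-box pattern, which is its own reverse complement, was found 1 time in the window of Cd3d, 2 times in that of Cd3e, 4 times in that of Cd3g and 3 times in that of Cd8a. Of 32851 windows of the same length, 72.3% held at least 1 such match. The Runx core TGTGGT and the TATA box TATAAA, each searched on both strands, had 0 matches in these 4 windows. They were found in 16.8% and 13.6% of all windows. A match is a stretch of letters and was not tested as a binding site.

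Total counts per library were 24587443 to 30244215 for EAE mice and 26031889 to 34184576 for PBS-treated mice. An observed 0 leaves room for as many as 3 counts (95% confidence, counting error only), and that limit is given below as FPKM for the genes it touches. The 17 microglia genes examined were all detected, with a summed level of 204 to 331 FPKM in EAE libraries against 183 to 305 FPKM in PBS libraries. The 12 neuron genes examined summed to 1693 to 1921 FPKM and 1872 to 2038 FPKM, respectively. Transcripts of neurons were thus abundant in libraries labelled as microglia, and their part in the levels of the T cell genes was not tested.

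The 9 genes fell into separate ranges of abundance. FPKM divides counts by library total and by transcript length, so that levels of different genes can be compared. Cd4 had the highest mean level over the 16 libraries, 1.31 ± 0.370 FPKM (SD, n = 16). It was followed by Zap70 at 1.11 ± 0.312 FPKM and Lck at 0.864 ± 0.245 FPKM. These 3 genes were at 0.464 FPKM or more in every library, above the highest value of any of the other 6 genes, 0.312 FPKM. Cd8a averaged 0.145 FPKM, Cd3e 0.104 FPKM, Cd2 0.0653 FPKM and Cd28 0.0520 FPKM. Cd3g and Cd3d came last, at 0.0391 and 0.0277 FPKM. The mean level of Cd4 was 12.5 times, and that of Lck 8.27 times, that of Cd3e. Together Cd4, Lck and Zap70 held 91.1% of the 4943 counts of the 9 genes, and the 3 CD3 genes held 2.14%.

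**Figure D1:**
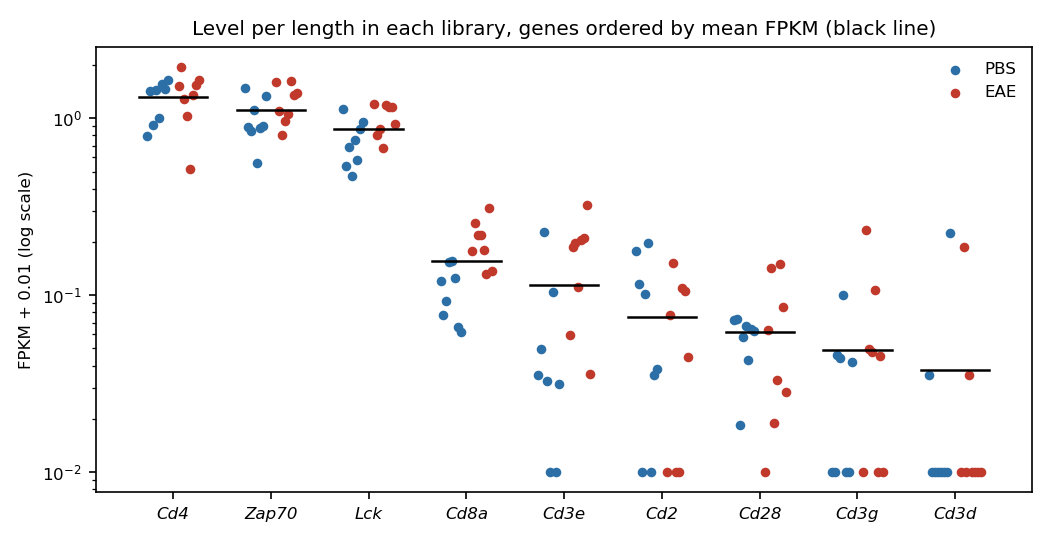
FPKM + 0.01 on a log scale for each of the 9 genes in each of 8 PBS (blue) and 8 EAE (red) libraries, with the mean over 16 libraries as a black line. Cd4, Zap70 and Lck lie at or above 0.464 FPKM in all libraries, and the other 6 genes lie at or below 0.312 FPKM.

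Neighbours in this order were mostly not separated. Cd4 was above Zap70 in 12 of 16 libraries and Zap70 above Lck in 13, and their ranges overlapped. Lck and Cd8a were the only neighbours whose ranges did not overlap, with Lck higher in 16 of 16 libraries. Cd8a was above Cd3e in 12 libraries. The ranges of Cd3e, Cd2, Cd28, Cd3g and Cd3d overlapped from each neighbour to the next, and their order is not firm at these counts.

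The CD3 chains pair with the receptor's antigen-binding chains and carry the motifs that LCK phosphorylates. Cd3d, the delta chain, had counts of 0 to 7 in EAE libraries (median 0) against 0 to 10 in PBS libraries (median 0). It was at 0 in 12 of 16 libraries, and 1 library of each group, EAE 2 with 7 counts and PBS 8 with 10, held 17 of its 19 counts. At its length, 3 counts correspond to 0.0580 to 0.0807 FPKM, depending on the library. The groups overlapped, and the ratio of summed counts per depth, EAE to PBS, was 0.823 (95% exact interval 0.287 to 2.25, counting error only).

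Cd3g, the gamma chain, had counts of 0 to 6 in EAE libraries (median 1) against 0 to 3 in PBS libraries (median 0.5). EAE 2 was again the highest, and 15 of 16 libraries were at or under 3 counts. The ratio per depth was 2.26 (95% exact interval 0.786 to 7.35, counting error only), from 12 and 6 counts in all. This interval includes 1 and leaves out the spread between mice. At its length, 3 counts correspond to 0.0858 to 0.119 FPKM.

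Cd3e, the epsilon chain that pairs with both delta and gamma, was the CD3 gene with the most counts. Its counts were 1 to 13 in EAE libraries (median 7) against 0 to 9 in PBS libraries (median 1). It was at or under 3 counts in 8 of 16 libraries, and 3 counts correspond to 0.0578 to 0.0804 FPKM at its length. All 8 EAE libraries had more Cd3e per depth than the median PBS library, but EAE 8 had 1 count and PBS 3 had 9, so the groups overlapped. The mean level was 0.156 ± 0.0929 FPKM (SD, n = 8) in EAE mice against 0.0528 ± 0.0731 FPKM in PBS-treated mice. The fitted log2 fold change (log2FC, EAE over PBS) was 1.52 (SE 0.67), with an unadjusted p of 0.0335 and an adjusted p of 0.239 in edgeR's quasi-likelihood test. It did not pass the threshold of an adjusted p under 0.05. An antisense gene, Gm48719, shares 135 exonic bases with Cd3e, on the other strand. The libraries were stranded, and the strand setting of the counting is not given in the sources used here, so that a share of antisense reads was not assessed.

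The value for Cd3e depended on which libraries were compared. The libraries EAE 6, 7 and 8 and PBS 5, 7 and 8 were compared apart as a possible batch known from earlier results of these data, which the labels do not give. Among them Cd3e had 8, 13 and 1 counts against 0, 0 and 1. There its log2FC was 4.24, fitted against PBS libraries with 1 count in all and therefore no bound. The adjusted p was 0.0187 in edgeR's quasi-likelihood test, from an unadjusted p of 0.00331. In the fit of all libraries but PBS 3, a smaller unadjusted p of 0.00245 gave an adjusted p of 0.0870. Adjustment is milder where a larger share of all mRNAs has small p-values. That share is not given here, and passing in the smaller set does not set Cd3e apart from other mRNAs. Among the other 5 libraries of each group, the log2FC was 0.75 with an adjusted p of 0.808 in the same test. With each library left out in turn, the log2FC ran from 1.29 without EAE 7 (edgeR-adjusted p = 0.377) to 2.32 without PBS 3 (edgeR-adjusted p = 0.0870). Its unadjusted p was under 0.05 in 8 of these 16 fits.

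The number of mRNAs detected divides the libraries in another way, at 17405 to 17644 in replicates 1 to 4 of both groups and 17831 to 18042 in replicates 5 to 8, a division chosen after the data were seen. Within replicates 1 to 4 the log2FC of Cd3e was 0.66 (edgeR-adjusted p = 0.835), and within replicates 5 to 8 it was 2.64 (edgeR-adjusted p = 0.261). With this division as a term in the fit it was 1.55 (edgeR-adjusted p = 0.239).

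Summed over the 3 CD3 genes, counts per library were 1 to 20 in EAE mice (median 8) against 0 to 12 in PBS-treated mice (median 2.5). All 3 chains had at least 1 count together in 3 libraries: EAE 2, with 7, 7 and 6 counts of Cd3d, Cd3e and Cd3g, EAE 4, with 1, 4 and 1, and PBS 8, with 10, 1 and 1. PBS 7 had 0 counts of all 3. The sum was 0.331 ± 0.235 CPM (counts scaled to library total, SD, n = 8) in EAE mice against 0.150 ± 0.147 in PBS-treated mice. The library with the most CD3 counts, EAE 2, also had the most Cd4 counts, 181, while PBS 7 had 178 of Cd4. Genes with a pattern like that of the CD3 sum were not sought, since the sum reached 10 counts in only 5 of 16 libraries.

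**Figure D2:**
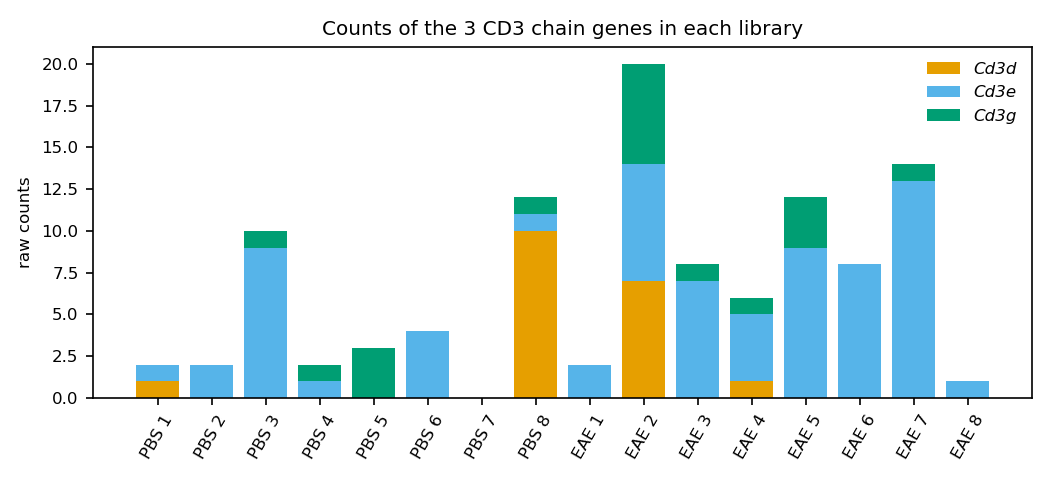
Raw counts of Cd3d, Cd3e and Cd3g, stacked, in each PBS and EAE library. The stacks run from 0 in PBS 7 to 20 in EAE 2, and Cd3d appears as more than 1 count in EAE 2 and PBS 8 alone.

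CD247, the zeta chain, completes the signalling part of the receptor, and its gene followed another pattern. Cd247 had 25 to 40 counts in EAE libraries (median 33) against 18 to 58 in PBS libraries (median 24.5), so that every library held it. Its mean level was 0.177 FPKM, above that of Cd3e, Cd3g and Cd3d, and its log2FC was 0.31 (SE 0.23, edgeR-adjusted p = 0.523). Of 10 receptor subunit genes looked up, 4 were found among the 21878 mRNAs. The constant-region genes Trac, Trbc1, Trbc2, Trdc, Trgc1 and Trgc2 were not found under these symbols, so their levels could not be read.

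Both costimulatory receptors had low counts, at or under 3 in 12 of 16 libraries for Cd2 and in 5 of 16 for Cd28. At their lengths, 3 counts correspond to 0.0767 to 0.107 FPKM for Cd2 and 0.0203 to 0.0283 FPKM for Cd28. Cd2, an adhesion receptor of T and NK cells, had 0 to 4 counts in EAE libraries (median 1.5) against 0 to 7 in PBS libraries (median 2). The mean level was 0.0549 ± 0.0546 FPKM (SD, n = 8) in EAE mice against 0.0758 ± 0.0740 FPKM in PBS-treated mice. Its log2FC was −0.51 (SE 0.79, edgeR-adjusted p = 0.796).

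Cd28, the receptor for CD80 and CD86, had 0 to 16 counts in EAE libraries (median 4.5) against 1 to 9 in PBS libraries (median 7). The EAE libraries were the more uneven: EAE 3 and EAE 6 had 14 and 16 counts, and EAE 1 had 0. The scatter of counts was divided by that of Poisson noise at each library's depth, so that 1 means counting noise alone. This index was 6.12 for Cd28 among EAE mice and 0.843 among PBS-treated mice. The log2FC was 0.19 (SE 0.58, edgeR-adjusted p = 0.909), and its sign turned when EAE 3 or EAE 6 was left out, to −0.10 and −0.16.

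The proximal kinases were measured in every library. Lck had 42 to 86 counts in EAE libraries (median 64) against 32 to 71 in PBS libraries (median 51). As FPKM, the EAE libraries ranged from 0.673 to 1.19 (median 1.03) and the PBS libraries from 0.464 to 1.119 (median 0.706). In 4 EAE libraries Lck was above every PBS library and in 3 PBS libraries it was below every EAE library, with overlap among the rest. The mean was 0.991 ± 0.202 FPKM (SD, n = 8) in EAE mice against 0.738 ± 0.226 FPKM in PBS-treated mice. The log2FC was 0.38 (SE 0.19, edgeR-adjusted p = 0.313), with an unadjusted p of 0.0612 in that test. A miRNA gene, Mir8119, shares 25 exonic bases with Lck on the same strand.

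Zap70, the kinase that binds phosphorylated CD3 and zeta chains, had 57 to 123 counts in EAE libraries (median 97) against 52 to 119 in PBS libraries (median 87). Levels were 0.795 to 1.605 FPKM (median 1.22) in EAE mice against 0.546 to 1.46 FPKM (median 0.888) in PBS-treated mice. In 7 of 8 EAE libraries it was above the PBS median, and the ranges overlapped over most of their length. The log2FC was 0.26 (SE 0.19, edgeR-adjusted p = 0.508). It was 0.62 (edgeR-adjusted p = 0.0617) within the 6 libraries of the possible batch and 0.02 (edgeR-adjusted p = 0.990) within the other 10. It was −0.023 (edgeR-adjusted p = 0.984) within replicates 1 to 4 and 0.54 (edgeR-adjusted p = 0.368) within replicates 5 to 8. The difference between these sets was not tested.

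Lck and Zap70, which act in sequence, were also compared across libraries. Among the 4 genes with at least 5 counts in every library, 6 pairs were compared on log2 CPM over 16 libraries. For Lck and Zap70, Pearson's r was 0.569 (permutation p = 0.0216, adjusted over the 6 pairs 0.130) and Spearman's rho was 0.626 (permutation p = 0.0109, adjusted 0.0657). Neither passed after adjustment. Without PBS 2 and PBS 4, the libraries farthest from the median of Lck, r was 0.705. Without EAE 6 and PBS 5, those farthest from the median of Zap70, r was 0.6. It was 0.632 within the 8 EAE libraries, 0.363 within the 8 PBS libraries, 0.872 within the 6 libraries of the possible batch and 0.569 within the other 10, and 0.601 and 0.640 within replicates 1 to 4 and 5 to 8. For the other 5 pairs r was −0.216 to 0.214 (permutation p-values 0.425 to 0.879, adjusted 0.645 to 0.879) and rho was −0.0147 to 0.282 (permutation p-values 0.289 to 0.961, adjusted 0.868 to 0.961). These values also moved with the libraries used, in both directions. For Zap70 and Cd4, r was 0.573 without EAE 5 and PBS 1 but 0.125 without EAE 6 and PBS 5. It was 0.798 within the 6 libraries and −0.0395 within the other 10. For Lck and Cd4, r was 0.552 within the 6 libraries and −0.475 within the other 10.

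The co-receptors CD4 and CD8 mark helper and cytotoxic T cells. Cd4, the class II co-receptor, had 55 to 181 counts in EAE libraries (median 135) against 73 to 180 in PBS libraries (median 151.5). Its level was 0.507 to 1.93 FPKM (median 1.42) in EAE mice against 0.781 to 1.63 FPKM (median 1.43) in PBS-treated mice. The lowest library was EAE 5 and the highest EAE 2, so the EAE range enclosed the PBS range. The log2FC was 0.03 (SE 0.21, 95% interval from the SE −0.38 to 0.43, edgeR-adjusted p = 0.965). Its counts scattered 14.2 times as much as Poisson noise among EAE mice and 8.39 times among PBS-treated mice. This index grows with the count at the same relative spread, so it does not rank genes of unlike counts. Among EAE mice the level of Cd4 was 4.83 ± 1.55 CPM (SD, n = 8), against 0.244 ± 0.238 CPM for Cd28, the wider relative spread.

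Cd8a, the alpha chain of the class I co-receptor, showed the smallest p-value of the 9 genes. Its counts were 10 to 26 in EAE libraries (median 16) against 5 to 15 in PBS libraries (median 8). All 8 EAE libraries were above the PBS median per depth, 6 EAE libraries were above every PBS library, and 6 PBS libraries were below every EAE library. The mean level was 0.194 ± 0.0607 FPKM (SD, n = 8) in EAE mice against 0.0968 ± 0.0378 FPKM in PBS-treated mice. The log2FC was 0.95 (SE 0.32, 95% interval from the SE 0.31 to 1.58), with an unadjusted p of 0.00778 and an adjusted p of 0.123 in edgeR's quasi-likelihood test. In the exact permutation test of mean FPKM (two-sided), p was 0.00186, and 0.0860 when adjusted over all mRNAs tested. Cd8a therefore did not pass the threshold in either test.

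Cd8a ranked 1133 by p-value among 17885 mRNAs. Its scatter was close to counting noise, 1.59 times Poisson among EAE mice and 1.46 times among PBS-treated mice. The log2FC stayed between 0.82 and 1.06 when each of the 16 libraries was left out in turn, with adjusted p-values of 0.0910 to 0.226 in edgeR's test. Within replicates 1 to 4 it was 0.96 (edgeR-adjusted p = 0.518) and within replicates 5 to 8 it was 0.93 (edgeR-adjusted p = 0.467). When edgeR's exact test was used instead, its adjusted p was 0.04998. Cd8b1, the beta chain that forms the CD8 heterodimer on most cytotoxic T cells, had 0 to 6 counts in EAE libraries (median 2.5) against 0 to 11 in PBS libraries (median 3). Its log2FC was −0.48 (SE 0.76, edgeR-adjusted p = 0.804).

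**Figure D3:**
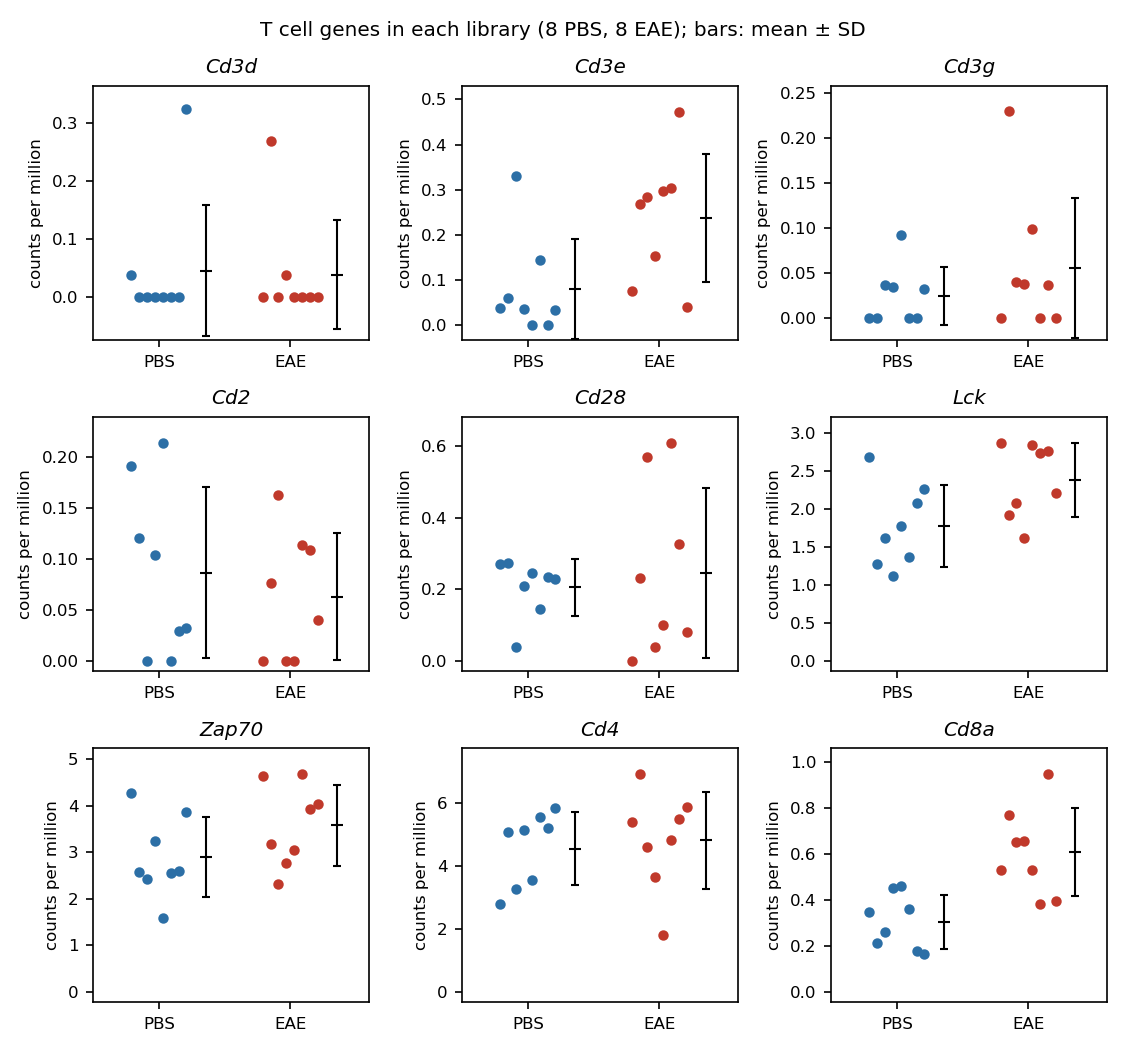
CPM of each of the 9 genes, 1 point per library, with the mean and SD of 8 PBS and 8 EAE libraries as black bars. The groups overlap in every panel, with 6 EAE libraries above all PBS libraries for Cd8a.

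With edgeR's quasi-likelihood test, 0 of the 9 genes had an adjusted p under 0.05, against 2.42% of all 17885 mRNAs tested (0.66% higher and 1.76% lower in EAE mice). Cd8a and Cd3e, 2 of the 9, had an unadjusted p below 0.05, both higher in EAE mice, against 17.4% of all mRNAs in either direction, 7.92% higher and 9.52% lower. The same count of 0 was given by limma on log2(FPKM + 0.1), and edgeR's exact test gave 1, Cd8a. The shares of all mRNAs printed above are those of the quasi-likelihood test alone. DESeq2 gave 0 of the 4 genes for which it returned an adjusted p (Lck, Zap70, Cd4 and Cd8a) and returned no adjusted p for the other 5. The number with an unadjusted p under 0.05 was 1 without EAE 5, EAE 6, EAE 7, PBS 4, PBS 5 or PBS 7, and without PBS 1 or PBS 8 it was 2 with Lck in place of Cd3e. The log2FC was above 0 for 7 of the 9 genes, against 52.7% of all mRNAs. The median log2FC was 0.26, or 0.19 with Cd3g, which was at or under 3 counts in all PBS libraries, set at 0, and the median of all mRNAs was 0.01. The CPM ranges of the groups overlapped for all 9 genes, as they did for all but 0.263% of mRNAs.

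**Figure D4:**
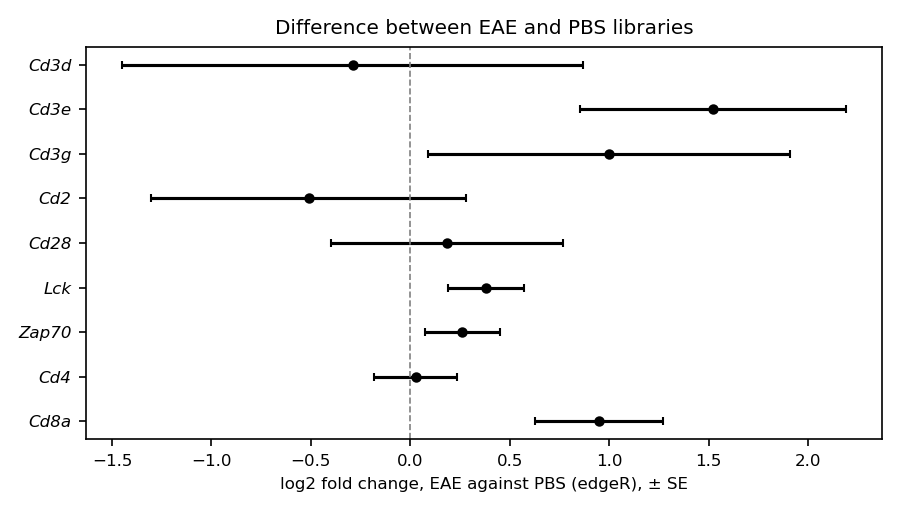
log2 fold change of each gene, EAE over PBS, from edgeR's quasi-likelihood fit, with bars of 1 standard error. Estimates run from −0.51 for Cd2 to 1.52 for Cd3e, and the bars are widest for the 5 genes with the fewest counts, Cd3d, Cd3g, Cd2, Cd3e and Cd28.

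Other genes of T cell receptor signalling were examined as a list of 20 with Lck and Zap70 among them. All 20 were tested, of which 1 was higher and 0 were lower at an adjusted p under 0.05 in edgeR's quasi-likelihood test, with a median log2FC of 0.16. The gene that passed was Vav1, a guanine nucleotide exchange factor used by T cells and myeloid cells alike. Vav1 had 296 to 358 counts in EAE libraries (median 326) against 208 to 374 in PBS libraries (median 255), and a log2FC of 0.42 (SE 0.10, edgeR-adjusted p = 0.0255). The most abundant genes of the list were Plcg1, Fyn and Pag1, at 31.5, 20.8 and 8.27 FPKM, which many cell types use.

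Lat, the adaptor that ZAP70 phosphorylates, had a mean of 0.766 FPKM. Themis, Ubash3a and Sh2d1a, which are largely restricted to T and NK cells, had means of 0.0211, 0.0181 and 0.0518 FPKM. These 4 genes were picked for their roles after their values were seen. Their adjusted p-values in edgeR's quasi-likelihood test were 0.753 to 0.953.

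Of 20 co-receptor and costimulatory or inhibitory receptor genes, 19 were tested, and 0 had an adjusted p under 0.05 in edgeR's quasi-likelihood test. At an unadjusted p under 0.05, 1 was higher, Cd8a, and 0 were lower, against 7.92% and 9.52% of all mRNAs. The median log2FC was 0.12. Tnfrsf18, Tnfrsf4 and Lag3 were the most abundant, at 11.8, 2.93 and 2.21 FPKM. Cd40lg, the ligand that activated helper T cells use to stimulate antigen-presenting cells, was not tested, with 0 to 5 counts in EAE libraries against 0 in each PBS library.

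Among 23 genes of T helper lineages, 19 were tested. At an adjusted p under 0.05 in edgeR's quasi-likelihood test 0 passed. At an unadjusted p under 0.05, 1 was higher, Il7r, the interleukin 7 receptor, and 0 were lower, against 7.92% and 9.52% of all mRNAs. Il7r had a log2FC of 0.70 (SE 0.24, edgeR-adjusted p = 0.130). Rora, Il12rb2 and Ikzf2 led by level, at 10.5, 3.22 and 1.67 FPKM. The cytokines of encephalitogenic T cells, named here after their values were seen, were near 0: Ifng had 0 to 2 counts in EAE libraries against 0 to 5 in PBS libraries, Il17a 0 to 8 and 0 to 1, and Csf2 0 to 12 and 0 to 8. Il2 had 0 counts in all 16 libraries. Foxp3, a transcription factor of regulatory T cells, was at 1.43 FPKM, far above the CD3 chains, with a log2FC of 0.18 (SE 0.18, edgeR-adjusted p = 0.639). Its mean was 1.54 ± 0.441 FPKM (SD, n = 8) in EAE mice and 1.31 ± 0.332 FPKM in PBS-treated mice. Whether these reads came from regulatory T cells was not tested.

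Of 16 homing and memory genes, all tested, 0 had an adjusted p under 0.05 in edgeR's quasi-likelihood test, and 1 was higher and 3 were lower at an unadjusted p under 0.05, against 7.92% and 9.52% of all mRNAs. S1pr1, Bcl11b and Satb1 had the highest levels, at 47.9, 11.8 and 7.35 FPKM. Of 12 cytotoxic and NK cell genes tested from a list of 15, 0 had an adjusted p under 0.05 in the same test and 1, the chemokine Ccl5, had an unadjusted p under 0.05. Ccl5 had a log2FC of 0.98 (SE 0.28, edgeR-adjusted p = 0.0646). The most abundant genes of that list were Tyrobp, Ccl5 and Cd7, at 19.5, 2.12 and 0.602 FPKM. Nkg7, Ncr1 and Klrb1c did not reach the minimum for testing.

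Several of the molecules that T cell receptors and co-receptors bind were at far higher levels than the 9 genes. Of 15 such genes on antigen-presenting cells, all tested, 0 passed at an adjusted p under 0.05 in edgeR's quasi-likelihood test. At an unadjusted p under 0.05, 3 were higher and 0 lower, against 7.92% and 9.52% of all mRNAs. The median log2FC was 0.19. B2m, H2-D1 and H2-K1, of class I MHC, averaged 57.1, 27.3 and 12.5 FPKM. H2-Ab1, a class II chain that presents to CD4, had a log2FC of 0.54 (SE 0.16, edgeR-adjusted p = 0.0710), the smallest adjusted p of the list, while H2-Aa, its partner chain, had 0.07 (SE 0.24, edgeR-adjusted p = 0.920). Of 10 chemokine genes that attract T cells, 8 were tested and 0 passed, with a median log2FC of 0.50. At an unadjusted p under 0.05, 3 were higher and 0 lower, beside the same shares of all mRNAs. Ccl19, Ccl21a and Cxcl12 were the most abundant, at 10.3, 6.70 and 4.56 FPKM.

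Markers of other cell types were counted in the same way, beside 0.66% of all mRNAs higher and 1.76% lower at an adjusted p under 0.05. Of 16 neutrophil genes, 5 were higher and 0 lower at an adjusted p under 0.05 in edgeR's quasi-likelihood test, and their summed level was 54.8 to 105 FPKM in EAE libraries against 23.4 to 60.7 FPKM in PBS libraries. Of 12 monocyte and macrophage genes 0 passed, with 1 higher at an unadjusted p under 0.05, and of 17 microglia genes 2 were higher, Itgam and Trem2. Itgam encodes the CD11b used for the sort. Of 13 B cell genes tested, 1 was higher, Mzb1, with a log2FC of 1.27 (SE 0.30, edgeR-adjusted p = 0.0277). The B cell surface gene Ms4a1 had at most 2 counts in any library. Of 12 neuron genes 2 were lower, of 8 astrocyte genes 1 was higher and 1 lower, and of 8 oligodendrocyte genes 0 passed. At an unadjusted p under 0.05 in the same test, 0 neuron genes were higher and 5 lower. For astrocyte genes these counts were 1 and 6, and for oligodendrocyte genes 0 and 2. They were 5 and 0 for microglia genes, 8 and 0 for neutrophil genes and 2 and 0 for B cell genes. Among all mRNAs 7.92% were higher and 9.52% lower. The median log2FC was −0.11 for neuron, −0.22 for astrocyte, −0.13 for oligodendrocyte and 0.17 for microglia genes. The part of these cell types in the values of Cd8a, Lck and Zap70 was not tested.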

How the data were processed

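RNA was sequenced from 16 sorted samples, 8 from EAE mice and 8 from PBS-treated mice, grouped by the sample labels. The authors filtered the reads and aligned them with HISAT2, and the submitters' processing notes name HISAT2 2.1.0 and HTSeq 0.11.2, a read counter. The methods name GRCm38 for a filtering step, transcripts were annotated from RefSeq, and the build of the counted alignment and the strand setting are not given in the sources used here. Raw counts per mRNA and FPKM values were deposited for each library. The deposited FPKM equals the count divided by library total and a fixed length per mRNA (largest relative spread 1.15e-09 over the 7749 mRNAs above 500 counts).

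The quasi-likelihood test of edgeR 4.0.16 (R 4.3.3, TMM scaling, condition as the only term, two-sided) was run on the counts of the 17885 mRNAs reaching 16 counts in total, with Benjamini-Hochberg adjustment over all of them and a threshold of 0.05. Exact permutation tests on FPKM covered all 12870 divisions of the mice. Alternatives were DESeq2 1.42.0, limma 3.58.1, edgeR's exact test, other scalings and filters, sets of libraries (replicates 1 to 4 and 5 to 8 were added after seeing the data), and each library left out. Correlations used 100000 permutations in SciPy 1.17.1.

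The 9 genes and all gene lists were chosen with earlier results of these data known. Named beyond the 9 were list genes with an adjusted p under 0.05 (at most 5 per list) and up to 3 with the highest mean FPKM. Cd8b1, Cd40lg, Il7r, Nkg7, Ncr1, Klrb1c, Foxp3, H2-Ab1, H2-Aa and Ms4a1 were named after their values were seen, as were those so described in the text. Other mRNAs of the tables served only for the fit and the background shares. Each library is 1 mouse, so that p-values measure the spread between mice. The possible batch of 6 libraries was also known from earlier results.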

Additional observations from a re-analysis of the deposited data

Results flagged for a closer look

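Within a group of 8 libraries, a library was looked at again when its gap to the nearest other library took a larger share of the group's range than Dixon's 95% critical value. This was checked in 18 sets of 8 libraries, 9 genes in each group, and for normal values chance marks about 1 in 20 such sets. That rate does not hold for the marked sets, in which most libraries had few or 0 counts and a few reads in 1 library suffice. The checks marked 5 values, all of CD3 genes. EAE 2 was marked for Cd3d, at 0.268 CPM (7 counts, next library 0.0385 CPM), and for Cd3g, at 0.230 CPM (6 counts, next library 0.0992 CPM). PBS 8 was marked for Cd3d at 0.324 CPM, from 10 counts, while it had 1 count each of Cd3e and Cd3g. PBS 3 was marked for Cd3e at 0.331 CPM, from 9 counts. PBS 5 was marked for Cd3g at 0.0918 CPM, from 3 counts, which lies at the counting limit.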

How the results depend on the processing

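Over 33 alternatives, 16 of which left out 1 library each and 3 of which were chosen after seeing the data (those on replicates 1 to 4 and 5 to 8), 256 of 274 values of the 9 genes with an adjusted p kept their direction and their side of the threshold. DESeq2 gave no adjusted p for the other 5 values (Cd3d, Cd3e, Cd3g, Cd2 and Cd28). The median log2FC was 0.02 to 0.49. Each shift from the main value of 0.26 was under the SD between libraries, 0.42, a limit wider than that value itself. The number of genes with an adjusted p under 0.05 was 1 with edgeR's exact test (Cd8a) and 1 of 7 tested within EAE 6, 7 and 8 and PBS 5, 7 and 8 (Cd3e). The shares of all mRNAs passing in these settings are not given here, and 2.42% is that of the main fit. With each library left out the number was 0, where 12 of 16 fits tested all 9 genes. Cd3d could not be tested without EAE 2 or PBS 8, nor Cd3g without EAE 2, EAE 5 or PBS 5. The number with an unadjusted p under 0.05 was 1 with edgeR's filterByExpr, which keeps 4 of the 9 genes, 0 within the other 5 libraries of each group, 0 within replicates 1 to 4, 1 within replicates 5 to 8, and 1 to 3 with each library left out. The log2FC of Cd28 turned to −0.21 with limma on log2(FPKM + 0.01), −0.088 within the other 5 libraries of each group, −0.011 within replicates 1 to 4 and −0.19 with a replicate block, and was −0.16 to 0.38 with each library left out. That of Cd4 turned to −0.043 within the other 5 libraries, −0.19 within replicates 5 to 8 and −0.0043 with the block, and was −0.060 to 0.15 with each library left out. That of Zap70 was −0.023 within replicates 1 to 4. The cause of these turns was not tested, and none passed the threshold. Samples of the 2 groups share replicate numbers in the labels. Of 8 pairs with the same number, 3 had a correlation of deviations over 0.1 (range −0.193 to 0.515). In 2 of 8 the best match had the same number. Such correlations cannot settle whether the numbers pair the mice, and the main fit treats the mice as unpaired. With the block, 0 genes had an adjusted p under 0.05 and 3 an unadjusted p under 0.05. Depth limits Cd3d, Cd3g and Cd2 most, with 18 to 34 counts over all libraries.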
